A study of Homo sapiens with 6 samples.

Results

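The replication-dependent histone genes were taken as the protein-coding genes whose GENCODE 29 symbol starts with HIST1H, HIST2H, HIST3H or HIST4H, which gave 71 of the 58735 genes in the table. They comprise 6 genes for the linker histone H1 and 17, 18, 15 and 15 genes for the core histones H2A, H2B, H3 and H4. Of these genes, 55 lie in the HIST1 cluster on chromosome 6, and a further 19 symbols of the same form are pseudogenes and were not counted. The cells were C4-2B MDVR, an established human prostate cancer line derived from C4-2B and resistant to enzalutamide, so every library comes from the same resistant line and carries no information on other lines or on parental cells. The groups were 10 µM and 20 µM PTUPB each combined with enzalutamide, 10 µM and 20 µM PTUPB alone, 20 µM enzalutamide alone, and DMSO vehicle, with 1 library per group after 2 days. PTUPB inhibits both soluble epoxide hydrolase and the enzyme COX-2, and enzalutamide is an antiandrogen drug; the labels give no enzalutamide dose for the combinations, and the same dose was assumed.

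Replication-dependent histone genes supply the histones that package newly made DNA, and their mRNAs accumulate mainly in S phase. Most of these mRNAs are not polyadenylated: they end just after a short stem-loop that is bound by the stem-loop binding protein SLBP and matured by the U7 snRNP. Some clustered histone genes also give a longer, polyadenylated mRNA that reads through the stem-loop, and such forms are known from cells that differentiate or leave the cell cycle. The labels call the libraries mRNA-Seq and do not say whether RNA was selected by its poly(A) tail, so the share of non-polyadenylated histone mRNA that could be captured is unknown.

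The libraries held between 20156523 and 29450436 fragments, and histone genes took between 0.0203% and 0.0531% of them. Levels are in FPKM, fragments scaled to exon length and to 1 factor per library. This factor did not simply follow the fragment total. FPKM times exon length was 35.4 per fragment in enzalutamide (29450436 fragments) and 33.5 in DMSO (27337933 fragments). All intervals are exact binomial intervals at 95% that cover counting error only. Of the 71 genes, 15 had no fragment in any library, 7 more never exceeded 3 fragments, 25 exceeded 3 fragments but averaged under 1 FPKM, and 24 averaged at least 1 FPKM over the 6 libraries and were tested. Of these 24, HIST1H2BJ, HIST1H4D, HIST1H4E and HIST2H4A passed only through the 20 µM PTUPB libraries, so any difference in them was partly set by the filter. Luminal markers were present, with EPCAM, KRT8 and KRT18 between 42.5 and 122 FPKM in every library, and 11 of the 12 markers of basal, stromal, blood and endothelial cells stayed under 1 FPKM throughout; the exception was COL1A1, a collagen gene of stroma. COL1A1 stood at 2.28, 3.67 and 6.47 FPKM with enzalutamide and at 2.38, 3.12 and 4.60 FPKM without it, at 0, 10 and 20 µM PTUPB, and it rose at 20 µM by limma (0.96, adjusted p = 0.0164); its part in the histone results was not tested. Of the 7 luminal markers 4 fell and 0 rose at 20 µM PTUPB by limma, against 18.2% and 15.9% of all tested genes. Their median effect was -2.99, and KLK3 and HOXB13 were among those that fell. KLK3 stood at 56.6, 19.0 and 0.458 FPKM with enzalutamide and at 105, 89.7 and 0.648 FPKM without it, at 0, 10 and 20 µM, and HOXB13 at 68.0, 50.8 and 7.30 FPKM with enzalutamide and at 77.2, 52.0 and 8.67 FPKM without it. Their part in the histone results was not tested. In bulk RNA, fewer cells of a type and less RNA per cell cannot be told apart.

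The stem-loops are shown because few protein-coding genes carry their pattern. The deposited values of many of the histone genes also count sequence on both sides of the stem-loop. A stem-loop pattern (GG, 3 further bases, TT, any base, T, any base, A, 3 bases and CC, with complementary arms) was found in 31 of the 38 histone genes whose GENCODE 29 models hold untranslated sequence, or 81.6%, and in 0.305% of the 19659 protein-coding genes searched. That share is 60 genes, of which 29 lie outside the set of histone genes described here. Capitals mark the 16 bases of the pattern, and each line has 5 flanking bases on either side, from GENCODE 29 transcripts.
HIST1H2AC: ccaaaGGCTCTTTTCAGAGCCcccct
HIST3H2A: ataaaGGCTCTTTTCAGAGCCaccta
HIST1H2BC: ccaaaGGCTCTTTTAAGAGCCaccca
HIST1H2BD: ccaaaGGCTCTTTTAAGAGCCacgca
HIST1H3E: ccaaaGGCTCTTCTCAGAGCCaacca
HIST1H4I: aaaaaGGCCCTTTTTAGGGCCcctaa
On GRCh38 these lie at chr6:26124664-26124689 (plus strand), chr1:228457364-228457389 (minus), chr6:26123467-26123492 (minus), chr6:26158582-26158607 (plus), chr6:26225591-26225616 (plus) and chr6:27139649-27139674 (plus), in the order of the lines. All 31 patterns lay within 120 bases of the stop codon. In 22 of the 31 genes a model ran more than 100 bases past the pattern: that of HIST1H2AC went on for 1114 bases, and HIST1H3E had a model that stopped 5 bases past it and another that went on for 1862 bases. The other 33 histone genes, HIST1H1C and HIST1H4D among them, have models that end at the stop codon, so no stem-loop could be sought there and fragments past the stop codon were not counted for them.

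At 20 µM PTUPB, 7 of the 24 histone genes rose and 1 fell by limma's additive fit across all 6 libraries (Benjamini-Hochberg adjusted p under 0.05 over 12960 genes), against 15.9% of all tested genes that rose and 18.2% that fell. The risers were HIST1H1C, HIST1H2AC, HIST1H2BC, HIST1H2BD, HIST1H2BN, HIST1H3E and HIST1H4D, and the gene that fell was HIST2H2AC. HIST1H4D passed the filter only through the 20 µM libraries, and of the 20 genes that pass without those libraries 6 rose. The median effect was 0.71 on the log2(FPKM + 1) scale for the histone genes and 0.0045 for all genes. With 1 library per group, these p-values measure departures from additivity over 2 residual degrees of freedom and not the spread between cultures. Leaving out the DMSO library or the enzalutamide library each left 1 riser, HIST1H1C, and no gene that fell. Over all 12960 genes the risers dropped as well, from 2064 to 366 and 115, and those that fell from 2362 to 616 and 209. Without the filter on low levels HIST1H1C and HIST1H2BD were the 2 that rose, where 544 of 31321 genes rose.

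**Figure D1:**
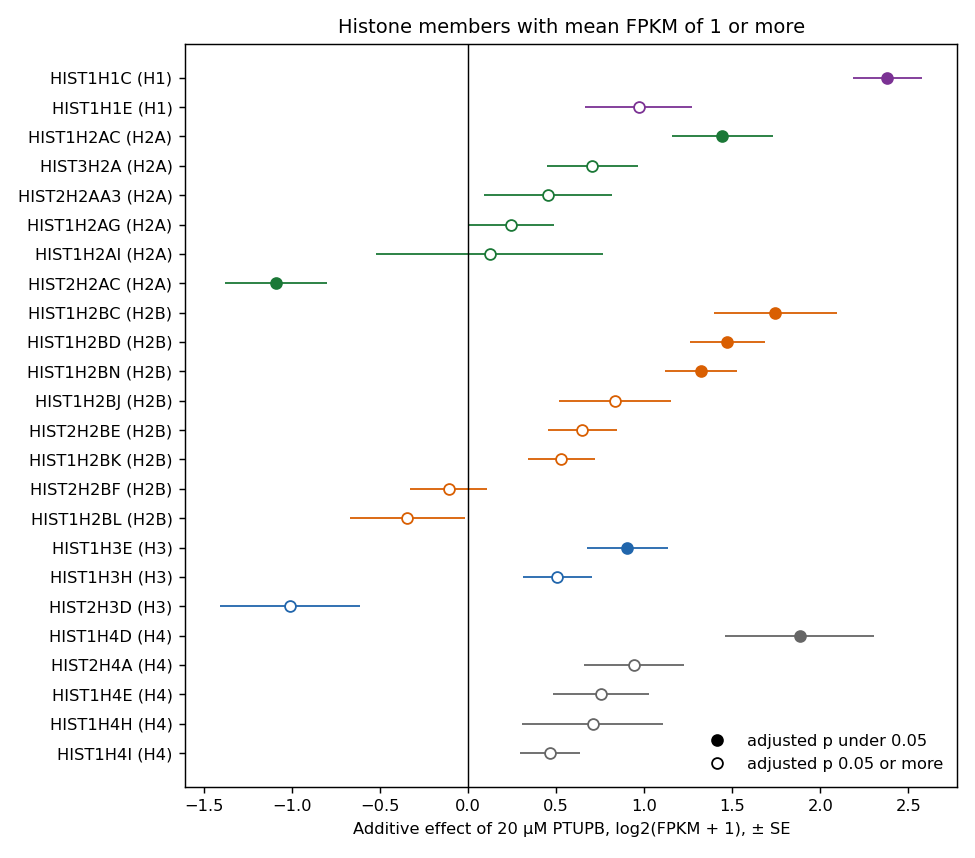
Additive effect of 20 µM PTUPB (horizontal axis, log2(FPKM + 1), bars ± SE from limma over 6 libraries) for the 24 histone genes that averaged at least 1 FPKM, coloured by class. Filled points passed an adjusted p of 0.05: 7 lie right of 0 and HIST2H2AC lies left of it.

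HIST1H1C, which encodes the linker histone H1.2 (single exon, chr6:26055787-26056428, minus strand), had the highest level and the largest effect of the 24. With enzalutamide it stood at 50.9, 55.5 and 289 FPKM at 0, 10 and 20 µM PTUPB, and without enzalutamide at 46.3, 41.5 and 228 FPKM. Both 20 µM libraries were far above the other 4, and the 10 µM libraries lay next to their own baselines. The combination at 20 µM was 5.68-fold over enzalutamide (interval 5.28 to 6.11) and 20 µM PTUPB was 4.94-fold over DMSO (4.58 to 5.32). The additive effect was 2.38 ± 0.20 (log2, SE; limma adjusted p = 0.00292), and its adjusted p stayed between 1.46e-05 and 0.0456 under the alternatives run.

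HIST1H1E, which encodes H1.4, stood at 3.85, 1.20 and 10.0 FPKM with enzalutamide and at 2.80, 1.93 and 5.39 FPKM without it, at 0, 10 and 20 µM PTUPB. Its lowest values were at 10 µM and its highest at 20 µM in both arms. The difference of 20 from 10 µM passed (1.73 ± 0.30, log2, limma adjusted p = 0.0129), while the effect of 20 µM did not (0.97 ± 0.30, adjusted p = 0.0563; 0.0229 after rescaling to TPM). HIST1H1B, the gene of H1.5, was too low to test: it had 24, 3 and 6 fragments with enzalutamide and 28, 13 and 0 without it. At 20 µM PTUPB it was at least 7.38-fold lower than in DMSO, taking 3 fragments as the limit of the library with none, and the 20 µM combination was 2.60-fold lower than enzalutamide (1.03 to 7.77). HIST1H1A, HIST1H1D and the testis-specific HIST1H1T never exceeded 9 fragments.

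The promoters of HIST1H1C and HIST1H1B are shown because the level of HIST1H1C was higher and that of HIST1H1B lower in each 20 µM library than at 0 µM in the same arm. Capitals mark AAACACA, known as the H1 box, and CCAAT, each on either strand (TGTGTTT and ATTGG are the same motifs on the other strand); TATAAA and ATTTGCAT were also searched and are absent from both. The sequences are RefSeq's (GRCh38.p14), 300 bases of which most lie before the start of transcription, minus strand, at chr6:26056421-26056720 for HIST1H1C and chr6:27867539-27867838 for HIST1H1B.
HIST1H1C: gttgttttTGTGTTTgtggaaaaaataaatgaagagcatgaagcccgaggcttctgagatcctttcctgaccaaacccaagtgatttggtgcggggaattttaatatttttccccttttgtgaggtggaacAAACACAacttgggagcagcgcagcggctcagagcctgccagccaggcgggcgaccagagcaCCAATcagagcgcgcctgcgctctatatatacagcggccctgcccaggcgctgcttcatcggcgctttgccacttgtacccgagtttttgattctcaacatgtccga
HIST1H1B: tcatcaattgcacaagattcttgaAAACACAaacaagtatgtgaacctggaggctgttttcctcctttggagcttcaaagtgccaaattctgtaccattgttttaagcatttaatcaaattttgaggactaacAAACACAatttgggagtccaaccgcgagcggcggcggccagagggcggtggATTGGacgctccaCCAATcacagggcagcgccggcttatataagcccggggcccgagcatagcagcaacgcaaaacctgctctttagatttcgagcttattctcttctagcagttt
Each holds 2 copies of AAACACA, and CCAAT occurs once in HIST1H1C and in 2 places in HIST1H1B. Promoters matched for 61 of the 71 histone genes. AAACACA was in 6 of 6 H1 promoters, against 5.76% of 27305 promoters of the same length. CCAAT was in 6 of 6 H1 promoters, in each matched H2A, H2B and H3 promoter and in 3 of 13 H4 promoters, against 35.7% of all. The octamer ATTTGCAT, the binding motif of OCT1 in histone H2B genes, was in 14 of 18 H2B and 11 of 14 H2A promoters, against 1.80% of all, and TATAAA was in 40 of the 61, against 12.0%. Among genes that averaged at least 1 FPKM the octamer was in 8 of 23 promoters, and among the lower genes in 18 of 38. These are matches of letters and not measured binding, and the promoters are not all separate stretches. Some H2A and H2B promoters, such as those of HIST1H2AC and HIST1H2BC, overlap on opposite strands, so the same octamer can count in both classes. HIST1H3D and HIST1H2AD were matched to the same 300 bases, counted in both H3 and H2A.

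Among the H2A genes, HIST1H2AC rose and HIST2H2AC fell. HIST1H2AC (chr6:26124145-26139116) stood at 12.4, 16.5 and 24.4 FPKM with enzalutamide and at 8.66, 13.2 and 36.6 FPKM without it, at 0, 10 and 20 µM PTUPB. Its level was ordered by dose in both arms, with an effect of 1.44 ± 0.28 (log2, limma adjusted p = 0.016); this was 0.122 without the DMSO library, 0.0777 without the enzalutamide library and 0.0823 without the filter. HIST2H2AC (chr1:149886975-149887364) stood at 7.72, 3.20 and 4.75 FPKM with enzalutamide and at 9.44, 4.16 and 2.50 FPKM without it. It was already lower at 10 µM than at 0 in both arms, and its effect at 20 µM was -1.09 ± 0.29 (adjusted p = 0.0359; 0.218 without the DMSO library, 0.129 without the enzalutamide library, 0.148 without the filter).

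HIST3H2A, the H2A gene with the highest level (chr1:228456979-228457873), lies outside the main cluster. It stood at 32.5, 35.5 and 38.9 FPKM with enzalutamide and at 19.0, 26.8 and 43.7 FPKM without it, at 0, 10 and 20 µM PTUPB. The order by dose held in both arms, but the additive effect did not pass (0.71 ± 0.26, limma adjusted p = 0.0846; 0.0238 without the library of 20 µM PTUPB plus enzalutamide and 0.0411 after rescaling to TPM). HIST1H2AI split by arm: it stood at 5.49, 1.81 and 1.73 FPKM with enzalutamide and at 2.53, 6.79 and 8.92 FPKM without it. HIST2H2AA3 and HIST2H2AA4 are near-identical copies whose fragments may be shared, and together they had 16, 13 and 10 fragments with enzalutamide and 24, 64 and 35 without it.

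Among the H2B genes, HIST1H2BC, HIST1H2BD and HIST1H2BN rose. HIST1H2BD stood at 12.0, 14.5 and 28.0 FPKM with enzalutamide and at 10.1, 13.9 and 37.1 FPKM without it, at 0, 10 and 20 µM PTUPB. HIST1H2BC stood at 1.49, 3.04 and 6.54 FPKM with enzalutamide and at 3.49, 2.39 and 15.6 FPKM without it. In both genes the 20 µM libraries were above the other 4. The effects were 1.47 ± 0.21 for HIST1H2BD (limma adjusted p = 0.00732) and 1.75 ± 0.35 for HIST1H2BC (adjusted p = 0.0165). Both lost the call without the DMSO library (adjusted p = 0.0731 and 0.0682) or the enzalutamide library (0.0644 and 0.136), and HIST1H2BC also without the 20 µM PTUPB library (0.0575) and without the filter (0.0954).

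HIST1H2BN stood at 0.918, 1.42 and 3.83 FPKM with enzalutamide and at 1.15, 1.33 and 4.34 FPKM without it, with an effect of 1.32 ± 0.21 (limma adjusted p = 0.00884; 0.0682 without the DMSO library, 0.105 without the enzalutamide library, 0.0584 without the filter). Its annotation spans 5477 exon bases and overlaps HIST1H2AK and HIST1H2AL, and strand use in counting is unstated, so its fragments are uncertain. The H2B gene with the highest level, HIST1H2BK, stood at 44.3, 51.9 and 70.0 FPKM with enzalutamide and at 42.8, 51.2 and 57.2 FPKM without it. HIST2H2BE stood at 13.8, 21.8 and 26.5 FPKM with enzalutamide and at 17.0, 20.5 and 22.8 FPKM without it. Both were ordered by dose in each arm, with effects of 0.53 ± 0.19 (limma adjusted p = 0.0803) for HIST1H2BK and 0.65 ± 0.20 (0.051) for HIST2H2BE; without the 20 µM PTUPB library both passed (0.0445 and 0.0351).

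Among the H3 genes HIST1H3E rose. It stood at 3.63, 4.82 and 5.70 FPKM with enzalutamide and at 2.56, 3.86 and 7.63 FPKM without it, at 0, 10 and 20 µM PTUPB, in order of dose in both arms. The effect was 0.90 ± 0.23 (log2, limma adjusted p = 0.0324), and it lost the call when any library other than the 20 µM combination was left out (adjusted p between 0.0516 and 0.225). HIST1H3H stood at 6.21, 6.98 and 11.2 FPKM with enzalutamide and at 7.11, 7.88 and 8.66 FPKM without it, which did not pass (0.51 ± 0.20, adjusted p = 0.0994; 0.0229 without the 20 µM PTUPB library). HIST2H3D, a gene of H3.2, was not called: it stood at 3.27, 2.67 and 0.663 FPKM with enzalutamide and at 3.01, 0.823 and 1.54 FPKM without it (effect -1.01 ± 0.40, adjusted p = 0.103; 0.049 without the 10 µM and 0.0301 without the 20 µM PTUPB library). HIST1H3B, under the filter, had 4, 5 and 0 fragments with enzalutamide and 18, 24 and 3 without it.

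Most H4 genes encode an identical protein, and the H4 gene called at 20 µM was HIST1H4D, which passed the filter only through the 20 µM libraries, so its call was partly set by the filter. HIST1H4D (chr6:26188765-26189076) had 0, 6 and 11 fragments with enzalutamide and 0, 0 and 27 without it, at 0, 10 and 20 µM PTUPB. Taking 3 fragments as the limit of a library with none, it was at least 5.65-fold higher in the 20 µM combination than in enzalutamide and at least 11.4-fold higher at 20 µM PTUPB than in DMSO. Its limma adjusted p was 0.0226, and the range over the alternatives that ended the call was 0.0614 to 0.154 (without the DMSO, enzalutamide or 20 µM PTUPB library, with a pseudocount of 0.1 and without the filter). HIST1H4I, the H4 gene with the highest level, stood at 9.60, 10.4 and 13.9 FPKM with enzalutamide and at 10.8, 13.9 and 14.9 FPKM without it (effect 0.46 ± 0.17, adjusted p = 0.0874).

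HIST1H4H stood at 1.29, 4.92 and 1.99 FPKM with enzalutamide and at 2.98, 3.89 and 7.14 FPKM without it, so its highest library was 10 µM in the first arm and 20 µM in the other. HIST1H4E stood at 0.976, 0.611 and 2.86 FPKM with enzalutamide and at 1.03, 1.00 and 1.96 FPKM without it. The effects were 0.71 ± 0.40 for HIST1H4H (limma adjusted p = 0.22) and 0.75 ± 0.27 for HIST1H4E (0.0835; 0.0372 without the 20 µM PTUPB library). The near-identical copies HIST2H4A and HIST2H4B, whose fragments may be shared, together had 50, 40 and 82 fragments with enzalutamide and 39, 35 and 139 without it.

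**Figure D2:**
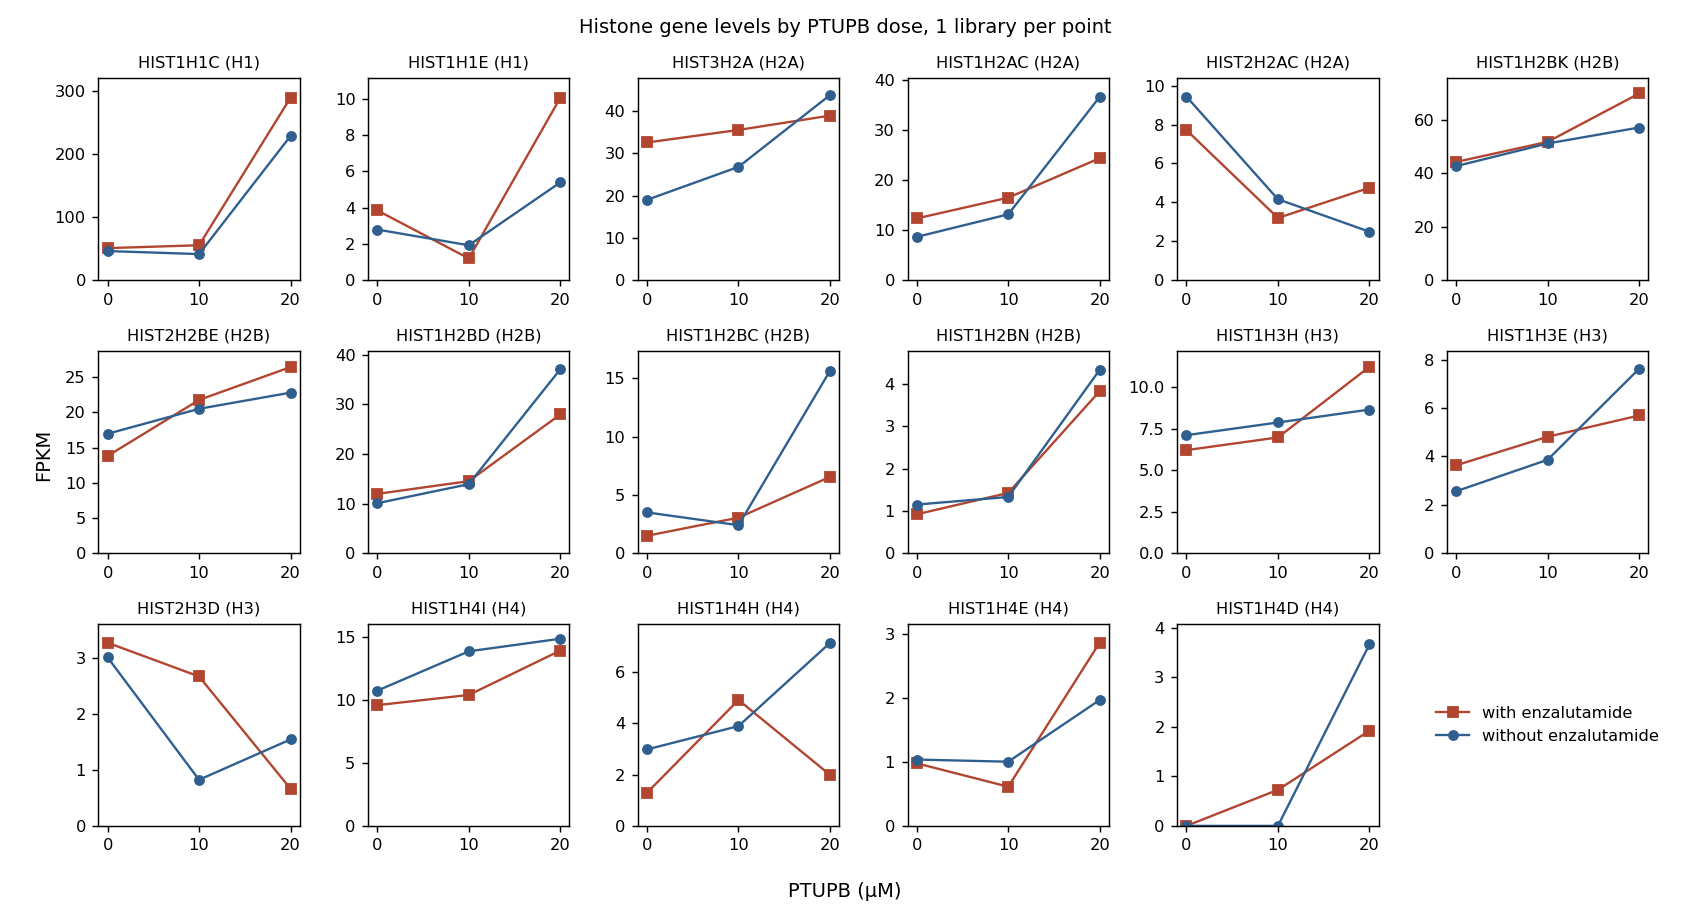
FPKM (vertical axes, each from 0) against PTUPB dose in µM for 17 histone genes, the highest of each class and those with the largest 20 µM effects; squares are cells with enzalutamide, circles without, 1 library per point. HIST1H1C turns up between 10 and 20 µM in both arms, HIST2H2AC is lower at 10 and 20 µM than at 0, and HIST1H4H is highest at 10 µM with enzalutamide and at 20 µM without it.

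Summed over all 71 genes, histone levels stood at 230, 255 and 559 FPKM with enzalutamide and at 211, 242 and 534 FPKM without it, at 0, 10 and 20 µM PTUPB. The 20 µM sums were 2.44-fold over enzalutamide and 2.53-fold over DMSO. HIST1H1C alone made up 51.7% of the sum in the 20 µM combination and 42.8% at 20 µM PTUPB, against 22.2% in enzalutamide and 21.9% in DMSO. Without HIST1H1C the sums were 179, 199 and 270 FPKM with enzalutamide and 165, 200 and 306 FPKM without it, so the remaining genes were also highest at 20 µM in both arms. By class, the 20 µM combination was 5.36-fold over enzalutamide for H1, 1.19-fold for H2A, 1.73-fold for H2B, 1.33-fold for H3 and 1.61-fold for H4. The folds of 20 µM PTUPB over DMSO were 4.63 for H1, 2.15 for H2A, 1.82 for H2B, 1.20 for H3 and 1.97 for H4. The H1 sums rest on HIST1H1C: without it the other 5 H1 genes summed to 11.2 FPKM in the 20 µM combination, against 5.10 in enzalutamide (2.20-fold), and to 5.45 FPKM at 20 µM PTUPB, against 4.27 in DMSO (1.28-fold).

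In 16 of the 24 genes both 20 µM PTUPB libraries lay above the other 4, against 30.3% of all tested genes, and in 0 of 24 both lay below, against 29.5%. Of the 20 genes that passed the filter without the 20 µM libraries, 12 had both 20 µM libraries on top. At a margin of 1 on the log2(FPKM + 1) scale, with no test, 12 of 24 were higher and 1 lower at 20 µM PTUPB than in DMSO, against 9.47% and 12.7% of all genes. In the 20 µM combination 6 were higher and 2 lower than in enzalutamide, against 13.5% and 15.8% of all genes. After rescaling to TPM 11 were higher, but the share of all genes in TPM was not computed. The median of all genes moved up as well for this pair, from 0.0063 to 0.097. HIST1H1C, HIST1H2BC, HIST1H2BD, HIST1H2BN and HIST1H4D were past the margin upward in both arms. The arm with enzalutamide added HIST1H1E, and the arm without it added HIST1H2AC, HIST1H2AI, HIST1H3E, HIST1H4H, HIST2H2AA3, HIST2H4A and HIST3H2A; whether these genes differ between arms was tested only by the interaction below.

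The step from 10 to 20 µM was tested in the same limma fit. Of the 20 genes that pass the filter without the 20 µM libraries 6 rose; with the 4 others 9 of 24 rose and 0 fell, where 16.5% of all genes rose and 16.9% fell. An unadjusted p under 0.05 was reached by 11 of 24, or 45.8%, against 46.8% of all genes. The 9 were HIST1H1C, HIST1H1E, HIST1H2AC, HIST1H2BC, HIST1H2BD, HIST1H2BJ, HIST1H2BN, HIST1H4D and HIST2H4A, of which HIST1H2BJ, HIST1H4D and HIST2H4A passed the filter only through the 20 µM libraries. Without the 10 µM PTUPB library or the 10 µM combination the count was 2 each, and without the DMSO or the enzalutamide library 5 each. Over all 12960 genes the risers dropped from 2132 to 351, 430, 1209 and 1207 in the same order. At 10 µM limma called 0 of 24, as it did for 0% of all genes, with 2 histone genes, HIST1H1E and HIST2H2AC, at an unadjusted p under 0.05 (8.33%, against 3.70% of all genes). In the single libraries, the 10 µM combination had 1 gene higher and 3 lower than enzalutamide, against 2.24% and 1.57% of all genes, and 10 µM PTUPB had 2 higher and 2 lower than DMSO, against 1.62% and 0.772%. HIST2H2AA3, 1 of the 2 higher, had 2.77 FPKM at 10 µM PTUPB. Without that library it would average under 1 FPKM, so this difference was partly set by the filter.

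Enzalutamide moved no histone gene past the test. Limma called 0 of 24 for the additive effect, against 0% of all genes, with 1 gene, HIST2H2AA3, at an unadjusted p under 0.05 (4.17%, against 4.83% of all genes). HIST2H2AA3 stood at 0.516, 0.689 and 0.397 FPKM with enzalutamide, at 0, 10 and 20 µM PTUPB. It passed the filter only through libraries without enzalutamide, so its differences between the arms were partly set by the filter. Enzalutamide and DMSO differed by less than the margin in each of the 24, where 1.31% of all genes were higher and 1.37% lower. The 10 µM combination had HIST2H3D higher and HIST1H2AI and HIST2H2AA3 lower than 10 µM PTUPB (1.41% and 2.01% of all genes). The 20 µM combination had 0 higher and 4 lower than 20 µM PTUPB (3.83% and 2.90% of all genes), namely HIST1H2AI, HIST1H2BC, HIST1H4H and HIST2H2AA3. The interaction of enzalutamide with dose was called for 0 of 24 by limma (0% of all genes, 1 residual degree of freedom), with 4 at an unadjusted p under 0.05 (16.7%, against 9.41% of all genes), all negative: HIST1H2AC, HIST1H2AI, HIST1H2BL and HIST3H2A.

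A list of 9 histone genes for which polyadenylated forms are known was set beside the other 62. The 9 summed to 169, 199 and 486 FPKM with enzalutamide and to 148, 170 and 444 FPKM without it, at 0, 10 and 20 µM PTUPB. Without HIST1H1C the remaining 8 summed to 118, 144 and 197 FPKM with enzalutamide and to 102, 129 and 215 FPKM without it, so HIST1H1C made most of the difference at 20 µM. The other 62 summed to 61.1, 55.8 and 73.2 FPKM with enzalutamide and to 63.0, 71.5 and 90.5 FPKM without it. Of the 9, 8 were tested and 4 rose (HIST1H1C, HIST1H2AC, HIST1H2BC and HIST1H2BD), with a median of 1.14. Of the 16 others tested 3 rose and 1 fell, with a median of 0.49. The 3 include HIST1H4D, which passed the filter only through the 20 µM libraries. Over all tested genes 15.9% rose and 18.2% fell, with a median of 0.0045. The list held 83.1% of the histone FPKM at 20 µM PTUPB, against 70.1% in DMSO, and 86.9% in the 20 µM combination, against 73.4% in enzalutamide.

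The 47 genes under the filter divided by their models. The 28 whose models end at the stop codon had 66, 37 and 21 fragments with enzalutamide and 107, 96 and 33 without it, at 0, 10 and 20 µM PTUPB. The folds here are of pooled fragments scaled by the same factor per library as FPKM and not to exon length, so long models weigh more. The 20 µM combination was 2.04-fold lower than enzalutamide (interval 1.23 to 3.51) and 20 µM PTUPB was 2.56-fold lower than DMSO (1.72 to 3.91). The 19 with untranslated sequence had 129, 154 and 136 fragments with enzalutamide and 135, 159 and 284 without it, which was 1.62-fold higher (1.27 to 2.08) in the 20 µM combination than in enzalutamide and 2.66-fold higher (2.16 to 3.29) at 20 µM PTUPB than in DMSO. HIST3H2BB and HIST1H2BE, singled out after their values were seen, held 193 of the 284 fragments at 20 µM PTUPB, against 39 of the 135 in DMSO. Without them the other 17 had 59 fragments in the 20 µM combination, against 74 in enzalutamide (1.23-fold after scaling), and 91 at 20 µM PTUPB, against 96 in DMSO (1.20-fold). As summed FPKM, the 19 were 1.24-fold over enzalutamide in the 20 µM combination and 1.57-fold over DMSO at 20 µM PTUPB. The summed FPKM of the 17 was 1.01-fold and 0.98-fold in the same comparisons. A gene that rose far enough would have left this set for the tested genes, so these counts are a description. Of the 5 tested genes with models ending at the stop codon, HIST1H1C and HIST1H4D rose and HIST2H2AC fell. Over all tested genes 15.9% rose and 18.2% fell.

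**Figure D3:**
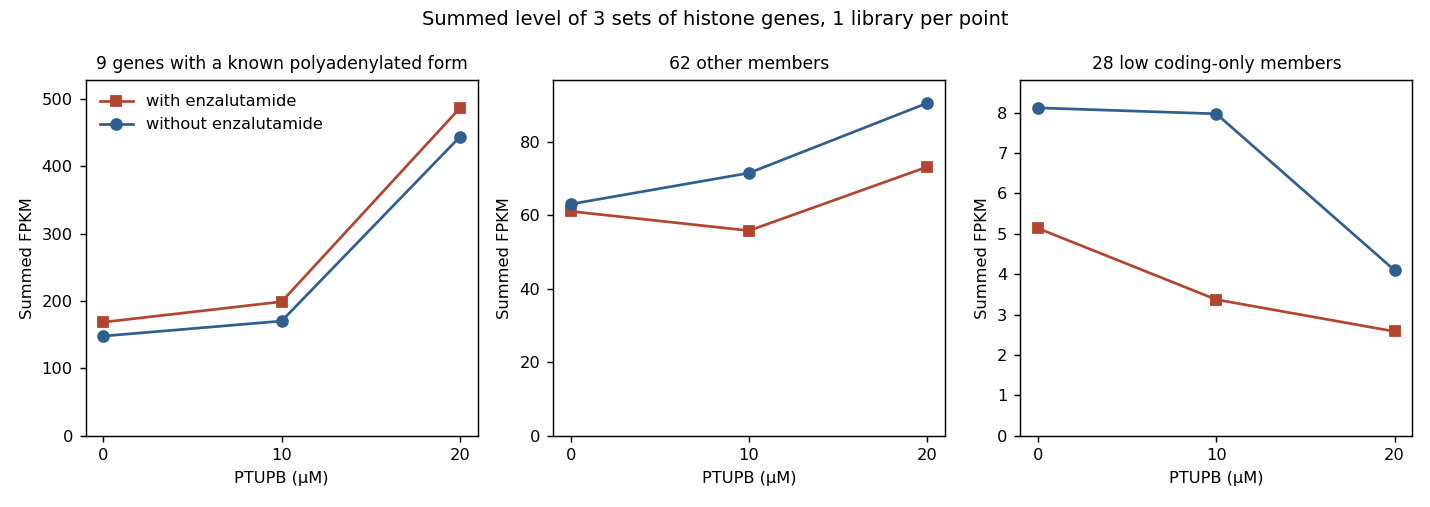
Summed FPKM (vertical axes, each from 0 and on its own scale) against PTUPB dose in µM for the 9 genes with a known polyadenylated form, the 62 others and, among these 62, the 28 low genes whose models end at the stop codon; squares are cells with enzalutamide, circles without, 1 library per point. The first set ends at 486 and 444 FPKM, while the last is lowest at 20 µM in both arms.

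The genes that work with histones were described from lists, on the same limma fit of 20 µM PTUPB. Of 30 S-phase and replication genes 23 fell and 0 rose, with a median of -1.47. Over all tested genes 18.2% fell and 15.9% rose. TK1, which salvages thymidine, stood at 71.1, 23.6 and 10.5 FPKM with enzalutamide and at 75.0, 52.3 and 2.59 FPKM without it (effect -3.53, adjusted p = 0.0118). CCNA2, the S-phase cyclin, fell by 3.08 (adjusted p = 0.00409), and PCNA, the replication clamp, fell by 1.52 (0.00951). MKI67, the proliferation marker Ki-67, stood at 8.27, 3.30 and 0.813 FPKM with enzalutamide and at 12.3, 11.3 and 0.932 FPKM without it (effect -2.57, adjusted p = 0.00632). The histone genes that rose did so in libraries in which most of these replication genes were lower; their part in the histone levels was not tested.

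Among 16 factors of histone mRNA transcription and 3′ processing limma called 0 at 20 µM, where 15.9% of all genes rose and 18.2% fell. The median of the 16 was 0.09, and 5 had an unadjusted p under 0.05 in limma, where 46.5% of all genes reached it. SLBP stood at 35.7, 24.1 and 43.5 FPKM with enzalutamide and at 38.2, 31.6 and 25.9 FPKM without it (effect -0.13, adjusted p = 0.753), and NPAT, the coactivator at histone gene clusters, at 3.29, 2.99 and 3.26 FPKM with enzalutamide and at 3.31, 3.65 and 3.56 FPKM without it. Of 21 tested chaperones and partners that carry histones, 7 fell and 0 rose, against 18.2% and 15.9% of all genes. ASF1B, which hands H3 and H4 to the replication fork, stood at 7.58, 3.42 and 0.237 FPKM with enzalutamide and at 8.16, 8.96 and 0.184 FPKM without it (effect -2.87, adjusted p = 0.00466), and HJURP, the chaperone of CENPA, fell by 2.25 (0.0108).

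Replacement histones, which are made outside S phase as well, moved both ways. Of 11 such genes 3 rose and 5 fell, against 15.9% and 18.2% of all genes. H1F0, the linker histone H1.0 of cells that stop dividing, stood at 109, 62.5 and 401 FPKM with enzalutamide and at 139, 73.9 and 217 FPKM without it (effect 1.26, limma adjusted p = 0.0404). The H3.3 genes moved in opposite directions: H3F3B rose by 1.00 (0.0481), while H3F3A fell by 0.79 (0.0328). H2AFJ rose by 1.11 (0.0263). H2AFX, whose product is phosphorylated at DNA breaks, fell by 2.19 (0.00554), H2AFZ, the gene of H2A.Z, by 1.54 (0.00579) and CENPA, the histone of centromeres, by 1.71 (0.0364). Of 11 CDK inhibitors and genes of cell cycle exit 4 rose and 0 fell, against 15.9% and 18.2% of all genes. CDKN1A, the gene of p21, stood at 48.4, 50.4 and 469 FPKM with enzalutamide and at 32.8, 25.2 and 427 FPKM without it (effect 3.46, limma adjusted p = 0.0025).

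**Figure D4:**
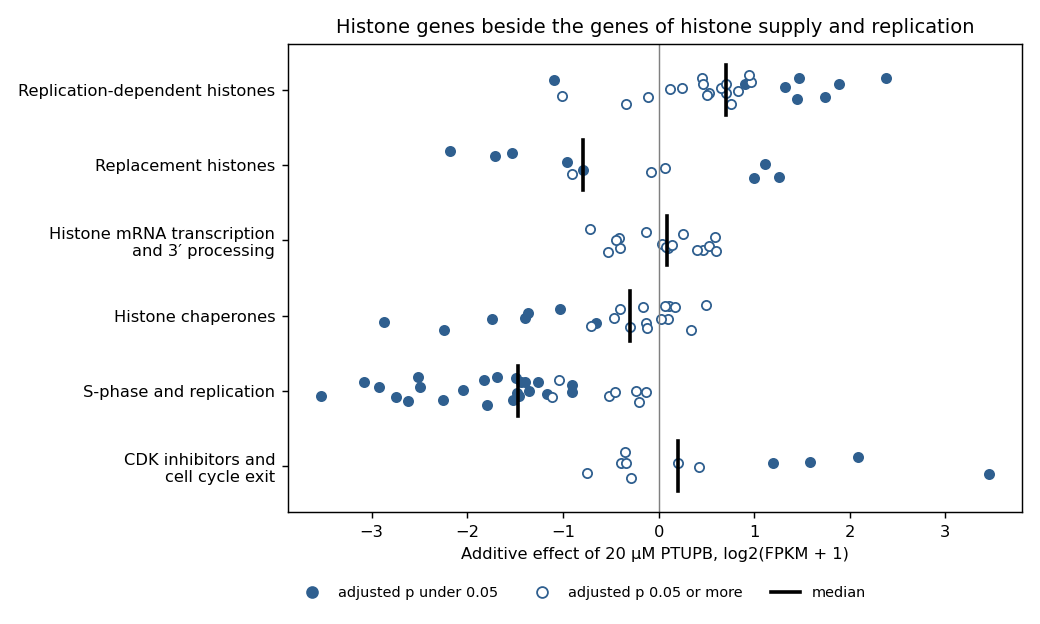
Additive effect of 20 µM PTUPB (horizontal axis, log2(FPKM + 1)) for the tested genes of 6 lists, 1 point per gene with vertical jitter; filled points passed an adjusted p of 0.05 in limma and black bars are medians. The median is 0.71 for replication-dependent histones and -1.47 for S-phase and replication genes.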

How the data were processed

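RNA from 6 cultures of C4-2B MDVR cells, 1 library each, was sequenced as paired ends of 150 bases, per the labels' protocols. The authors deposited 1 table of FPKM values for 58735 genes; the submitters' processing notes name HISAT and Cufflinks without versions, and the genome build and the use of strand are not given in the sources used here. All gene identifiers matched GENCODE 29. FPKM times exon length fell on whole multiples of 1 step per library for 99.97% to 99.99% of nonzero values (within 0.05), which gave fragments per gene; 3 fragments served as floor. Genes averaging at least 1 FPKM (12960) were tested on log2(FPKM + 1) by an intensity-trended limma fit (3.58.1, R 4.3.3) of 3 PTUPB levels plus enzalutamide, and with an added interaction with linear dose (given per 20 µM). Such fold changes understate changes of low genes. Differences of single libraries were counted at log2 of 1, without a test. The calculation was tested on simulated data. Values were printed for the 3 highest genes of each class, the 8 with the largest 20 µM effects and up to 4 per list, with fixed genes added; other histone genes were named after their values were seen. The members and lists were chosen with earlier results of these data known. Alternatives were a pseudocount of 0.1, no filter, rescaling to TPM, median-of-ratios scaling, omission of each library and, added after the data were seen, omission of genes that overlap another.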

Additional observations from a re-analysis of the deposited data

Results flagged for a closer look

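HIST1H2AI moved one way in every comparison of PTUPB with its own baseline without enzalutamide and the opposite way with enzalutamide. On the log2(FPKM + 1) scale the 10 µM combination differed from enzalutamide by -1.21 and the 20 µM combination by -1.25, while 10 µM PTUPB differed from DMSO by 1.14 and 20 µM PTUPB by 1.49. The fragments behind these were 78, 24 and 16 with enzalutamide and 38, 101 and 106 without it, at 0, 10 and 20 µM. The pairwise differences were not tested against each other; the interaction with linear dose in limma was -2.74 (unadjusted p = 0.0041, adjusted p = 0.449) and was not called.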

How the results depend on the processing

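The count of histone genes that rose at 20 µM PTUPB ran from 1 to 9 over the fits that left out 1 library, and was 2 without the filter on low levels. The count that fell ran from 0 to 2, and was 0 without the filter. Over all genes the risers ran from 115 to 2685 and those that fell from 209 to 2718, with 544 and 657 without the filter. For the step from 10 to 20 µM the rising count ran from 2 to 10, and was 1 without the filter. Over all genes that count ran from 351 to 2910, and was 425 without the filter. The filter alternative tests more genes (31321), and leaving out a library leaves fewer residual degrees of freedom. With a pseudocount of 0.1 the counts past the margin of 1 became 1 higher and 2 lower for enzalutamide against DMSO, and 2 higher for the 10 µM combination against enzalutamide and 2 against 10 µM PTUPB. Rescaling to TPM gave 2 lower for enzalutamide against DMSO, 2 higher for the 10 µM combination against enzalutamide and 2 against 10 µM PTUPB. It gave 11 higher for the 20 µM combination against enzalutamide. In TPM 1 negative interaction was called, where 110 of all 12960 genes were called negative and 191 positive. Without the filter 3 were lower at 20 µM PTUPB than in DMSO. Shares of all genes past the margin were not computed for these settings, so the changed counts cannot be called particular to histone genes. Of the summed levels as log2 ratios, the H3 sum of 20 µM PTUPB over DMSO was 0.49 and the sum of all classes 1.40 over genes of at least 1 FPKM, and the sum of all classes in the 20 µM combination over enzalutamide was 1.38 in TPM. No called value changed sign. TPM shifted the median of all genes by -0.402 for enzalutamide and by -0.296 for 10 µM PTUPB against DMSO and by -0.278 for the 20 µM combination against 20 µM PTUPB; the summed histone level of enzalutamide over DMSO was 0.808 in TPM and 1.09 in FPKM. Median-of-ratios scaling kept all 24 counts within 1.5 times, but it hardly changed the deposited values and so is no separate check. For 20 µM PTUPB against DMSO the median of all genes was -0.00625 with it and -0.00626 without it. Apart from the named settings, the cause of these shifts was not tested. No paired analysis was possible because each group has 1 library. Members with few fragments, and H4 and H2A copies with near-identical sequence, limit what these depths can separate.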
